A study of Mus musculus with 2 samples.

Results

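The enzymes of heme synthesis were followed step by step in total RNA from mouse femur, on 1 array for an allograft sample and 1 array for an autograft sample. In an autograft the animal's own tissue is put back, whereas the tissue of an allograft comes from another animal of the species. Both samples carry the strain name c57Bl/6. The labels do not say whether that strain is the donor or the recipient, nor give the graft procedure, the time after grafting, the age of the animals or how many animals stand behind a sample. The 8 genes are Alas1, Alas2, Alad, Uros, Urod, Cpox, Ppox and Fech. They were taken up as all probe sets (groups of short oligonucleotides read as 1 value for a transcript) whose only gene symbol in the platform annotation is one of these names, which gave 8 of the 12393 genes and 14 of the 22690 probe sets on the array. Each gene has at least 1 probe set, and no probe set with several symbols names any of them. With 1 array per graft type differences have no replicate check and the graft types could not be tested against each other, so every ratio below describes this pair of arrays and the number of arrays limits its precision.

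Heme is the iron-holding ring of hemoglobin, of cytochromes and of many oxidising enzymes. Its synthesis starts in the mitochondrion, where glycine and succinyl-CoA are joined to 5-aminolevulinate, goes on in the cytosol, and returns to the mitochondrion for the last steps. Most body heme is made in red cell precursors, which in adult mice live in bone marrow and spleen. The first step has a pair of enzymes from separate genes, with ALAS1 in most tissues and ALAS2 in erythroid cells. ALAS2 is controlled by erythroid transcription factors and by iron, and Alas1 is held down by heme itself.

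The promoters of the first-step genes are shown because those genes stood on opposite sides of 0 in the comparison of the arrays, and that of Cpox because it holds the same short motif as that of Alas2. Sequences are from RefSeq (GRCm38.p6), read 5′ to 3′ along the gene's strand. For Alas2 (plus strand, chrX:150547167-150547416) and Cpox (plus strand, chr16:58669958-58670207) the 250 bases before the annotated start are given, and capitals mark each match to GATA, the core bound by GATA factors, on either strand. For Alas1 (minus strand, chr9:106247906-106247935) 30 bases are given, and capitals mark a match to the palindromic motif of NRF1, a regulator of mitochondrial genes.
Alas2: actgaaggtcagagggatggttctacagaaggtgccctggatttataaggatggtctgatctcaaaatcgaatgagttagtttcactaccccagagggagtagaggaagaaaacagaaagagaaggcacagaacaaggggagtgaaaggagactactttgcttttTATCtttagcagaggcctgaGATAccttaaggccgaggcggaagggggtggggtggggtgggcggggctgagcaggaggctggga
Cpox: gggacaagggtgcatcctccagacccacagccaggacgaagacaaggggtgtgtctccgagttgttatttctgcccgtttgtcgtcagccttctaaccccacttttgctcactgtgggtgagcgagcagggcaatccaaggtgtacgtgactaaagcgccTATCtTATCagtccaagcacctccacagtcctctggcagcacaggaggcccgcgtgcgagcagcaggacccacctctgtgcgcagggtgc
Alas1: cgcacccaagGCGCATGCGCggcggtcact

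RefSeq gave 10 such windows of 250 bases for 7 of the genes, all but Fech. The Alas2 window holds 2 GATA matches, whose first bases lie 85 and 65 bases before the start, and the one at 85 is part of a match to AGATAA on the opposite strand. It also holds 4 matches, 3 of them overlapping, to CCNCNCCC, the type of site bound by the erythroid factor KLF1, and 1 match to TATAAA. The Cpox window holds 2 GATA matches, 90 and 85 bases before the start. Neither Alas1 window holds GATA, and 1 of them holds the NRF1 motif in 2 places, of which the printed one lies 195 bases before the more downstream of its 2 annotated starts. On both strands of all 32851 windows in the table, GATA occurs in 53.6%, AGATAA in 9.99%, CCNCNCCC in 45.9%, TATAAA in 12.4% and the NRF1 motif in 3.74%. Counted in the same way by window, 4 of the 10 windows of these genes hold GATA, 1 AGATAA, 6 CCNCNCCC, 1 TATAAA and 2 the NRF1 motif. Of the 7 genes, Alas2, Uros, Cpox and Ppox have GATA in a window. Alas1, Alas2, Alad and Uros have CCNCNCCC, and Alas1 and Uros have the NRF1 motif. These matches describe the letters of the windows and not sites in use.

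Set side by side, the arrays ask how transcript levels of the path from glycine to heme differed by graft type. Transcripts of 7 of the 8 enzymes read higher on the allograft array, by 1.20-fold to 1.64-fold in the brightest probe set of each gene, and Alas1 read lower. Alad, Alas2 and Cpox had the largest folds of allograft over autograft when the intensities were used as deposited. No enzyme differed 2-fold. The floor was 175.2, the median intensity over both arrays without controls, and a probe set that reached it counts as above the floor. A ratio is the log2 ratio of allograft over autograft after lower values were set to the floor. Of the 14 probe sets, 10 were above the floor on both arrays, 1 on the allograft array alone and 3 on neither. Of all 7833 genes above the floor on at least 1 array, 40.4% had a ratio above 0. At least 2-fold higher in the allograft were 0.868% of them.

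**Figure D1:**
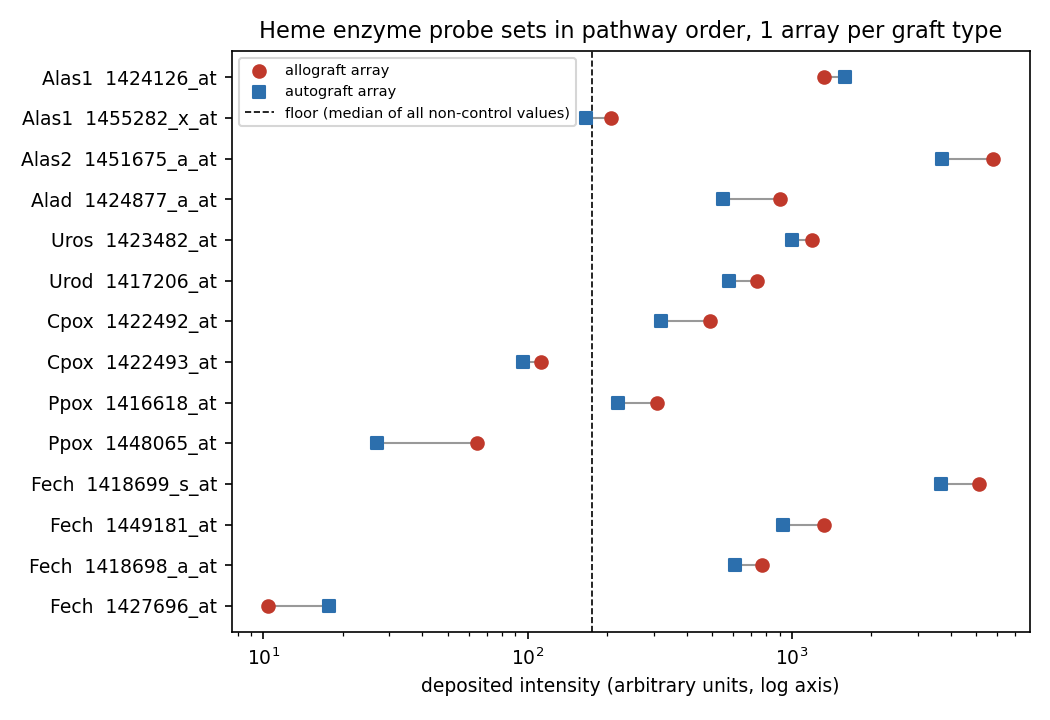
Deposited intensity (log axis) of each of the 14 heme enzyme probe sets in pathway order, with circles for the allograft array, squares for the autograft array and a dashed line at the floor of 175.2. Of the 10 probe sets right of the line on both arrays, the circle lies right of the square in 9, and Alas1 1424126_at has them the other way round.

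At the first step the brighter Alas1 probe set, 1424126_at, read 1321 in the allograft and 1593 in the autograft sample. The allograft value was the lower one, with a ratio of -0.27, which is 1.21-fold. Of the 9774 probe sets with 1 gene symbol over the floor on both arrays, 73.74% had a higher ratio. The other Alas1 probe set, 1455282_x_at, read 207 and 166, and went the opposite way. It lay below the floor on the autograft array, which leaves a bound of at least 1.18-fold higher in the allograft, and its name carries an x, which marks probes that may also bind other transcripts. The probe sets of Alas1 therefore disagreed in direction, and the dimmer one stood close to the floor.

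Alas2, the erythroid enzyme of the same step, was read by 1 probe set, 1451675_a_at, at 5799 in the allograft and 3693 in the autograft. Its ratio was 0.65 (1.57-fold), and 3.38% of the 9774 probe sets with 1 gene symbol over the floor on both arrays had a higher one. The ratio of Alas2 exceeded that of the brighter Alas1 probe set by 0.92. Intensities of different probe sets are not on a common scale, so this compares the shifts between the arrays and not the amounts of both transcripts. Bright probe sets as a class lay higher on the allograft array, and with the trend of the ratio on intensity removed Alas2 stood at 0.48 and the brighter Alas1 probe set at -0.22.

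The cytosolic steps come next. Alad, which joins 5-aminolevulinate molecules to the pyrrole porphobilinogen, read 904 and 550.0 (1424877_a_at), the highest ratio of the set at 0.72 (1.64-fold). Uros, which closes the ring to uroporphyrinogen III, read 1195 and 999.6 (1423482_at). Its ratio of 0.26 was the lowest of those above 0. Urod, which removes carboxyl groups to give coproporphyrinogen, read 736 and 580.0 (1417206_at), with a ratio of 0.34. All 3 enzymes read higher on the allograft array, and Alad stood apart from the other two by more than those differed from each other.

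The last steps are mitochondrial. Cpox, which oxidises coproporphyrinogen to protoporphyrinogen, read 491.5 and 321 in 1422492_at, a ratio of 0.62 (1.53-fold). Its second probe set, 1422493_at, read 112 and 96.3 and lay below the floor on both arrays. Ppox, which makes protoporphyrin, read 308 and 219.9 in 1416618_at, a ratio of 0.49, close above the floor on both arrays. Its second probe set, 1448065_at, read 64.2 and 26.9, again below the floor, so no ratio is given for either.

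Fech, the ferrochelatase that puts iron into protoporphyrin, has 4 probe sets and so the closest look within this pair of arrays. Probe set 1418699_s_at read 5106 in the allograft and 3665 in the autograft, 1449181_at read 1328 and 927, and 1418698_a_at read 774 and 607. The allograft value was the higher in each, and the ratios were 0.48, 0.52 and 0.35. They spanned 0.17, against an SD of 0.44 for the difference between the ratios of the 2 brightest probe sets of a gene, over the 1925 genes with at least 2 above the floor on both arrays. These probe sets read the same RNA and are not replicates. The fourth, 1427696_at, read 10.4 and 17.8, far below the floor on both.

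Over the 10 probe sets over the floor on both arrays, 9 had a ratio above 0, where 42.9% of all 9774 such probe sets did. The 3 at least 1.5-fold higher in the allograft were those of Alas2, Alad and Cpox, where the background was 4.46%. After quantile normalization or removal of the intensity trend the 3 were Alad, Cpox and Ppox (0.60 and 0.59), with Alas2 (0.45 and 0.48) under 1.5-fold. A floor raised to the 75th percentile left 7 probe sets, of which 1 was that much higher. At 2-fold the count was 0, with a background of 1.03% higher and 0.655% lower. The median over the 11 probe sets above the floor on at least 1 array was 0.48, against -0.07 over all 11010 such probe sets. All 10 ratios lay within the central 95% of the 9774, which ran from -0.75 to 0.74. The count rests on 8 genes, of which Fech alone gives 3 probe sets.

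**Figure D2:**
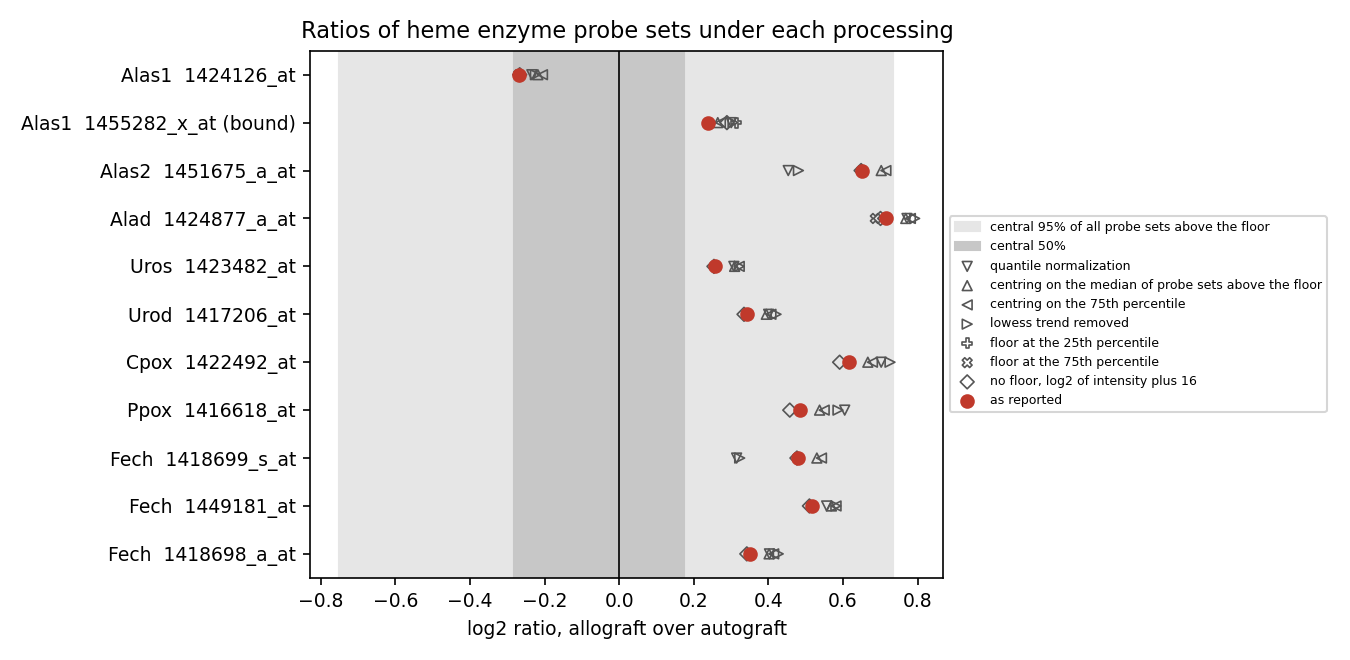
Log2 ratio of allograft over autograft for the 11 heme enzyme probe sets above the floor on at least 1 array, as reported (filled circles) and under 7 other ways of processing (open symbols), over the central 95% (light grey) and 50% (dark grey) of the 9774 probe sets over the floor on both arrays. Alas1 1424126_at stays left of 0 and the others right of 0 under each processing shown; the reported circle of Alas1 1455282_x_at is a bound.

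**Figure D3:**
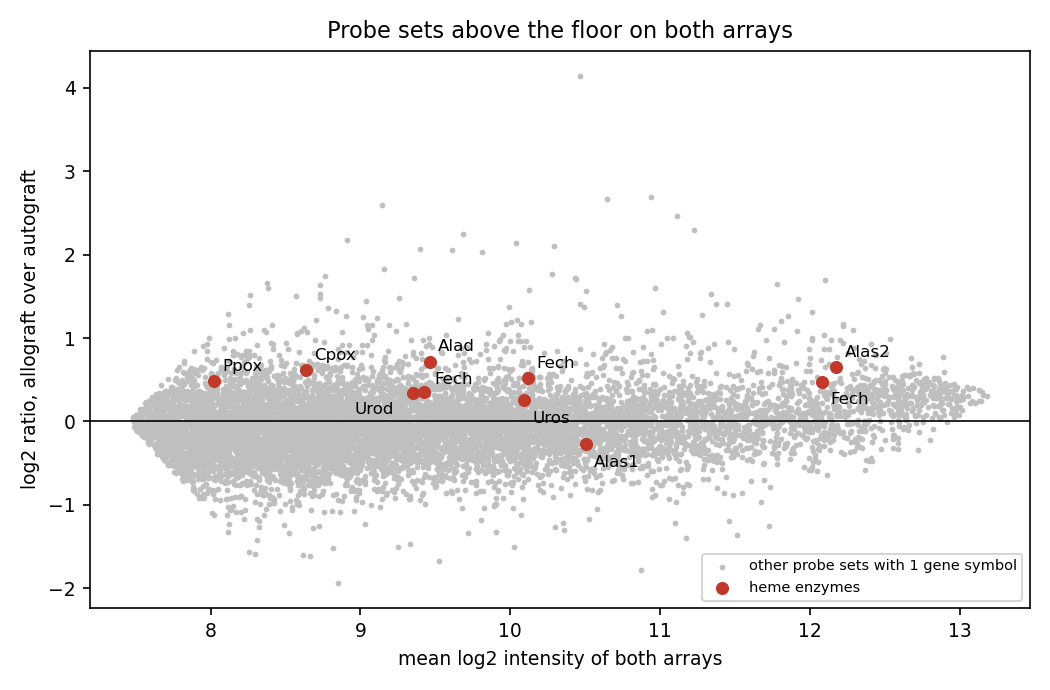
Log2 ratio of allograft over autograft against the mean log2 intensity of both arrays, for the 10 heme enzyme probe sets over the floor on both arrays (large points, named by gene) and the other probe sets with 1 gene symbol (small grey points). The grey cloud turns upward at the bright end, where Alas2 and the brightest Fech probe set lie, while Ppox, Cpox, Alad and Urod lie where the cloud is centred near or below 0.

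By closeness of log2 intensity on both arrays, the 5 probe sets of other genes most like that of Alas2 were those of Ndufa3 (5673 and 3509), Ldha (6079 and 3551), Cpe (5617 and 3930), Hnrnpk (5500.4 and 3496) and Ppp2r1a (5540 and 3950). They lay 0.08 to 0.12 log2 units away. With 2 arrays such likeness says only that these intensities are close.

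Carriers and enzymes that feed the pathway were mostly higher on the allograft array, by a list of 14 genes. Each gene of this and the following lists is read by its brightest probe set. Of the 13 with a probe set, all above the floor, 11 had a ratio above 0 and 2 below, where 40.4% of the 7833 genes above the floor on at least 1 array were above 0. Their median was 0.27, against -0.08 for those 7833 genes. Slc25a37, mitoferrin 1, which brings iron into the mitochondria of erythroid cells, read 2499 and 1251 (ratio 0.998). It lay just under 2-fold as deposited and just over it with either centring of the arrays (1.05 and 1.06) or with the intensity trend removed (1.02). Abcb10, a mitochondrial transporter that works with it, read 949.8 and 508 (0.90). Shmt2, a mitochondrial enzyme of glycine metabolism, was lowest at 552 and 767.5 (-0.48), though another of its probe sets stood at 0.33. Slc25a28, mitoferrin 2 of other tissues, read 698.5 and 816 (-0.22). The mitoferrins thus stood on opposite sides of 0, as did the first-step enzymes Alas2 and Alas1 in their brightest probe sets.

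Iron-sulfur cluster assembly, which FECH and the iron sensor Aco1 depend on, was split evenly. Of the 8 genes with a probe set, 4 stood above 0 (all genes 40.4%) and 4 below. Their median of -0.02 turned to 0.045 when the arrays were centred on their 75th percentile. Nfu1 (0.21) and Iscu (0.05) were highest and Isca2 (-0.20) and Nfs1 (-0.19) lowest. A second probe set of Nfu1 stood at -0.17, and Iscu stood at -0.24 after quantile normalization.

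The list of heme export and breakdown had 3 of 8 genes above 0 and a median of -0.11, both near the values for all genes given above (40.4% and -0.08). Blvrb, a biliverdin reductase abundant in red cells, read 1758 and 1085 (0.70). Hmox1, the inducible heme oxygenase that opens the ring, read 1088 and 848 (0.36). Flvcr2 read 170.3 and 308, the former under the floor, so it was at least 1.76-fold higher in the autograft. Slc48a1, which moves heme out of lysosomes, read 1004 and 1295 (-0.37), with a second probe set at 0.01. Flvcr1, a heme exporter, was below the floor on both arrays.

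**Figure D4:**
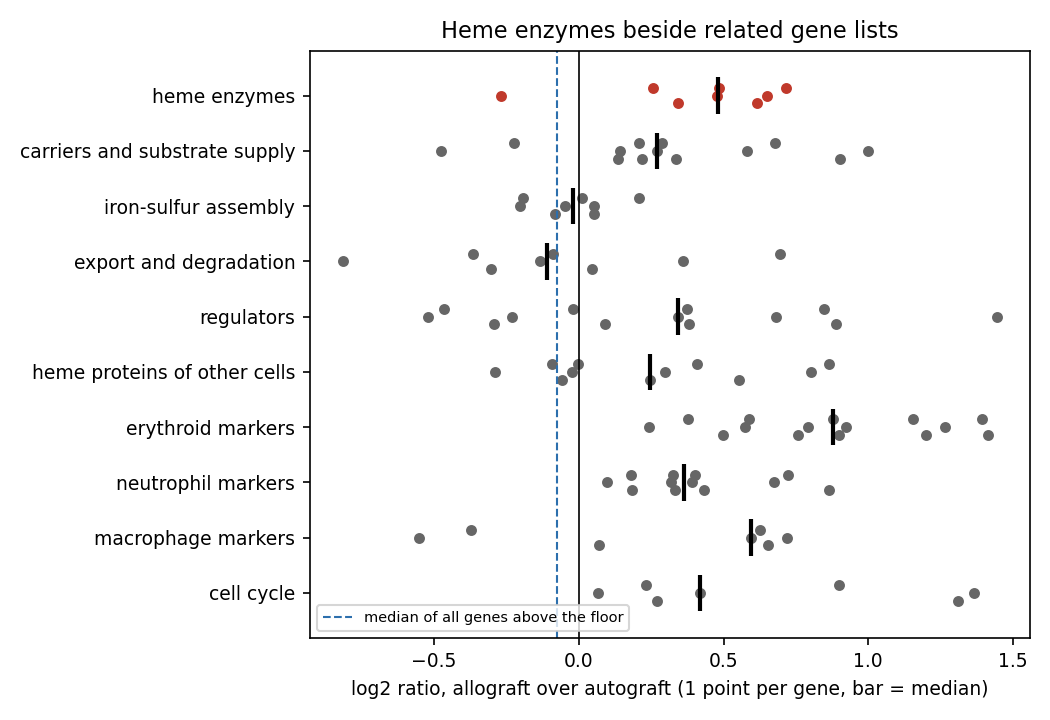
Log2 ratio of allograft over autograft, 1 point per gene in its brightest probe set, for the 8 heme enzymes and 9 related gene lists, with a bar at each median and a dashed line at the median of all genes above the floor (-0.08). The heme enzymes (median 0.48) lie below the erythroid (0.88) and macrophage markers (0.60). They lie above the cell cycle genes (0.42), neutrophil markers (0.36), regulators (0.34), carriers (0.27) and heme proteins of other cells (0.24). The iron-sulfur and breakdown lists straddle 0. Skeletal muscle (0.58) and adipocyte markers (0.55), which are not drawn, also had higher medians than the heme enzymes.

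Among 15 regulators of heme synthesis genes, 13 were above the floor, 8 of them with a ratio above 0 (all genes 40.4%). The median was 0.34, and 0.088 without a floor, when dim genes enter it. Tal1, a transcription factor of blood progenitors and red cell precursors, read 868 and 319 (1.44) and was the only one past 2-fold, where 0.868% of all genes were that much higher. With the floor raised to the 75th percentile its autograft value is replaced by the floor and the ratio is 0.63. Klf1, the erythroid factor named above, read 1363 and 737 (0.89). Gata1, chosen after its values were seen, read 448 and 279.6 (0.68). Lowest were Nr1d1, a clock repressor that binds heme, at 264 and 379 (-0.52), and Nrf1, at 261 and 360.4 (-0.47), while further probe sets of Nrf1 were below the floor. Ppargc1a, a coactivator of Alas1 in liver, was below the floor on both arrays.

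Globin, which takes up most erythroid heme, was read mainly by probe sets shared between near-identical genes. Of the 3 probe sets shared by both alpha globin genes, the one of highest intensity had a ratio of 0.64, the next one 1.47, and the third, above the floor in the allograft alone, a bound of 0.54. One shared by the beta globin genes likewise gave a bound of 0.42. Hbb-b2, a beta globin gene, was the only gene of its list of 10 above the floor by a probe set listed for it alone, at 1144 and 617 (0.89). That probe set carries the x mark for probes that may bind other transcripts, and the unmarked one read 9.0 and 102.0, below the floor on both arrays. Heme proteins made in other cells had a median of 0.24, with 6 of 11 genes above 0 (all genes 40.4%), and of 0.032 after quantile normalization. The granulocyte peroxidases Mpo (0.86), also a neutrophil marker here, and Epx (0.80) were highest. Cyp51, of sterol synthesis, was lowest with a bound of -0.29, and next came Cyc1, cytochrome c1 of the respiratory chain, at -0.09.

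Markers of several cell types moved with the heme enzymes. Of 17 erythroid markers, 15 had a probe set, and all 15 had a ratio above 0 (all genes 40.4%), 5 of them at least 2-fold higher (all genes 0.868%). Their summed intensities were 31835 (allograft) and 17527 (autograft), a quotient of 1.82, and their median ratio was 0.88. Further erythroid probe sets above the floor stood at 0.93 (Slc4a1), 0.09 (Tfrc) and -0.16 (Ank1). Of the neutrophil markers 12 of 12 were above 0 (median 0.36, sums 61473 and 48040.2), though a second probe set of Mmp9 stood at -0.35. Of the macrophage markers 5 of 7 were above 0 (0.60, 22581 and 18643), and of the cell cycle genes 7 of 7 (0.42, 18327 and 11718). The macrophage median depended on the probe sets, at 0.07 with those of each gene averaged: Csf1r stood at 0.65 in its brightest probe set and at -0.03 and -0.59 in others, and Cd68 (-0.55) and Adgre1 (-0.37) were below 0. The part of these cell types in the result was not tested. In whole tissue, more cells of a type and more RNA per cell cannot be told apart.

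The remaining marker lists were smaller, and their counts stand beside the 40.4% of all genes above 0. Of the markers of osteoblasts 3 of 6 were above 0, far apart in both directions, from Col1a1 at 2.70 and Col1a2 at 1.11 to Dmp1 at -0.83 and Alpl at -1.25, around a median of -0.28. Of the cartilage markers, 1 of 5 was above 0 (median -0.66), of those of skeletal muscle 4 of 6 (0.58) and of adipocytes 3 of 3 (0.55, and 0.26 after quantile normalization). Liver, the other main site of heme synthesis, left little signal: Alb read 189 and 219 and Apoa1 and Ttr were below the floor on both arrays. The bone genes Col1a1, Col1a2, Ibsp, Alpl and Dmp1 were above the floor in both samples in their brightest probe sets. A second probe set of Col1a1 read 2736 and 31.3 and one of Col1a2 445.5 and 14.9, below the floor in the autograft. That of Ibsp read 2242 and 3315, above it in both. The ratio of 3′ to 5′ signal of the beta-actin control, which rises with RNA breakdown, was 1.77 for the allograft and 1.19 for the autograft. That of the Gapdh control was 0.194 and 0.0349. Their part in these ratios was not tested.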

How the data were processed

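The authors deposited 1 intensity per probe set and array on a linear scale. How it was background-corrected and scaled, and with which software, is not given in the sources used here. The 2% trimmed mean was 500.2 on the allograft and 500.1 on the autograft array, so the intensities were used as deposited. Samples were grouped by title. After 64 controls were set aside from 22690 probe sets, 20380 carried a single gene symbol, 691 carried more than 1, and for 1555 the annotation table gave none. The Entrez identifiers of all 8 genes matched RefSeq (GRCm38.p6). Values below the floor of 175.2 were set to it before log2. A probe set above the floor on 1 array has a bound, and one above it on neither has no ratio. Where probe sets were averaged, or all floored ones used, the latter entered with both values at the floor. No p-value is given. Each list is described by its counts and median. The genes named are every heme enzyme probe set, from the pathway lists (not the marker lists) all genes where 6 or fewer are above the floor, otherwise the 2 highest and 2 lowest, and the 5 probe sets nearest Alas2; Gata1, Flvcr1, Ppargc1a and the marker genes named fall outside the rule. The members and lists were chosen with earlier results of these data known. Alternatives were quantile normalization, centring on the median or the 75th percentile, a lowess trend (span 0.4), floors at the 25th and 75th percentile, a pseudocount of 16 without floor, other thresholds, and other choices of probe sets. The computation was tested on simulated data. Ratios and counts were computed with pandas 2.3.3 and numpy 2.4.6 under Python 3.11.15, the trend with statsmodels 0.14.6, and plots with matplotlib 3.10.9.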

Additional observations from a re-analysis of the deposited data

How the results depend on the processing

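Under 7 alternatives of scaling, trend and floor the 11 heme enzyme probe sets gave 74 ratios, and all 74 kept their sign. Some of the 74 could not change sign. A moved floor leaves the ratio of a probe set above it on both arrays as it was. Centring shifts all such ratios by the same amount. Alas2 ranged from 0.45 to 0.72, Alad from 0.69 to 0.79, Cpox from 0.59 to 0.73 and the brighter Alas1 probe set from -0.27 to -0.21. The count at 2-fold was 0 in each, and a 1.5-fold threshold gave 3. That count of 3 became 1 under the higher floor (75th percentile), where fewer probe sets are left, and 4 without a floor, where dim ones enter. After quantile normalization and lowess it was 3 again, with Ppox past 1.5-fold in place of Alas2. The median of the heme enzyme probe sets was 0.35 under the lower floor (25th percentile), 0.32 with each gene's probe sets averaged and 0.35 over all 14 floored probe sets. Averages over probe sets, and the median over all 14, include those below the floor on both arrays, at a ratio of 0. Such entries pull a value towards 0 without a disagreement between probe sets. The regulators' median was 0.22 under the lower floor, 0.088 without a floor and 0.19 with probe sets averaged. That of heme proteins of other cells was 0.032 after quantile normalization, 0.090 after lowess, 0.061 under the lower floor and 0.054 without a floor. The iron-sulfur median turned to 0.033 with centring on the median, 0.045 with centring on the 75th percentile and 0.014 with probe sets averaged. Of the genes named from these lists, Iscu turned to -0.24 after quantile normalization and -0.23 after lowess, Slc25a37 passed 2-fold with either centring (1.05 and 1.06) and lowess (1.02), and Tal1 fell under it at the higher floor (0.63). Of the marker medians, that of macrophages was 0.36 after quantile normalization, 0.40 after lowess, 0.33 under the higher floor and 0.07 with probe sets averaged, that of neutrophils 0.24 and of adipocytes 0.26 after quantile normalization, and that of erythroid markers 0.76 with probe sets averaged. The cause was not tested. No array could be left out. No paired analysis was possible because each graft type has 1 array. Signal near the floor limits Ppox and the dimmer Alas1 probe set.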
